A study of Mus musculus with 9 samples.

Results

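Cytotoxic lymphocytes kill tumour cells through death receptors and through granules that deliver granzyme B. The 9 genes described here are the death receptors Fas, Tnfrsf10b and Tnfrsf1a, the initiator protease gene Casp8 with its inhibitor Cflar, the linker Bid, the inhibitor-of-apoptosis genes Birc2 and Birc3, and Serpinb9, which encodes the granzyme B inhibitor. They were taken by symbol from a table of 54838 Ensembl genes, and each symbol matched 1 identifier. After the low-count filter 13153 genes were tested, among them 8 of the 9, since Fas had too few counts.

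The cells were PDA530 Met, a mouse line of pancreatic ductal adenocarcinoma established from a liver metastasis in a KPC mouse (male, mixed 129/SvJae/C57Bl/6 background), and all groups were grown without treatment. There were 3 groups of 3 libraries. The knockout group was Zdhhc20 KO clone E4, edited with CRISPR/Cas9. The control group was clone C5, which went through nucleofection with the same guide RNAs but was not edited and still expresses Zdhhc20, so it is also called the unedited clone. The parental group was the uncloned line, named PDA50 Met in the design text and PDA530 Met in the sample labels. Each clone is a single clone, so a difference between groups cannot be told apart from a difference between clones, and a p-value here measures the spread between the 3 samples of a culture. In such bulk samples, fewer cells expressing a gene and less RNA per cell cannot be told apart. Zdhhc20, which encodes a palmitoyltransferase, was at 33.9 to 42.5 CPM (counts scaled to a common library total) in the knockout libraries, 85.8 to 123 in the control libraries and 75.3 to 90.7 in the parental libraries. Total counts per library ran from 16525869 to 23192701. The 3 control libraries differed more among themselves: the log2 CPM of a gene spanned a median of 0.39 there, 0.14 in the knockout libraries and 0.16 in the parental ones, over 10020 genes averaging 5 CPM or more. Lymphocyte markers were near 0, as the 8 of the cytotoxic lymphocyte list (Ptprc, Cd3e, Cd8a, Ncr1, Klrb1c, Nkg7, Gzmb and Prf1) summed to between 0 and 4 counts in any library. The ductal keratin genes Krt8, Krt18, Krt19 and Krt7 were present, while Epcam, also an epithelial marker, stayed between 0.118 and 0.635 CPM. The summed level of the 6 ductal markers was lower in the knockout libraries (3550 to 3670 CPM) than in the control (5940 to 8050 CPM) and parental ones (5560 to 6830 CPM), and its part in the results was not tested. The markers did not move as 1: Krt8, Krt18 and Krt19 fell in both knockout comparisons, with log2 fold changes of -0.19 to -3.12, while Epcam rose by 2.0 and 1.61. Krt7 fell against the control libraries (-1.0) and was at 0.09 against the parental ones, and Sox9 passed in neither comparison (-0.38 and 0.12).

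As background, a death receptor that binds its ligand gathers the adaptor FADD and caspase-8 at the membrane. Cellular FLIP, the product of Cflar, resembles caspase-8 and limits its activation there. In many epithelial cells active caspase-8 must also cleave BID, which carries the signal to mitochondria, and granzyme B can cleave BID as well. The Birc2 and Birc3 products are ubiquitin ligases of the TNF receptor complex that favour survival signalling.

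Promoter sequences were read from RefSeq on build GRCm38.p6, which held entries for 8 of the 9 genes and not for Tnfrsf10b. Birc2 is shown because both of its knockout calls held in every refit, Serpinb9 because it is the granzyme B inhibitor, and Fas because it was nearly silent. Each run is the 250 bases before the annotated start, 5′ to 3′ on the strand of the gene, with the motif match in capitals. Birc2 covers chr9:7837058-7837307 on the minus strand, Serpinb9 chr13:33004291-33004540 on the plus strand and Fas chr19:34290409-34290658 on the plus strand.
Birc2: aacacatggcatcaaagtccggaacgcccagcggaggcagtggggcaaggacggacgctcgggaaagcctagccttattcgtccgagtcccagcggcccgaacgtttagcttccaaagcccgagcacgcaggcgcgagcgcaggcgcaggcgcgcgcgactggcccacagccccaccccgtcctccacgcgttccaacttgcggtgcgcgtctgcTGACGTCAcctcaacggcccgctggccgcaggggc
Serpinb9: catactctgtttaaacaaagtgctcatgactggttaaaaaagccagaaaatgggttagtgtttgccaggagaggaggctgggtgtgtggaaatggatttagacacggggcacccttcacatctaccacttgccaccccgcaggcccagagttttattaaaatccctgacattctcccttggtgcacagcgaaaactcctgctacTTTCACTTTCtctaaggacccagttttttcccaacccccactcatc
Fas: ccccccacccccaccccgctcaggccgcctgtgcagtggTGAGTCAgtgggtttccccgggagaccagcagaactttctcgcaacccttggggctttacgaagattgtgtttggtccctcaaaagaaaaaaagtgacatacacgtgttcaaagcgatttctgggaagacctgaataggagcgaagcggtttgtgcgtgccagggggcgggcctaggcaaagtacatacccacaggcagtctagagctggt
The capitals in Fas mark an AP-1 match (TGANTCA) lying 211 to 205 bases before the start. In Serpinb9 they mark the interferon element core (GAAA and again GAAA after any 2 bases, here on the opposite strand) at 46 to 37 bases before the start. In Birc2 they mark a cyclic AMP element (TGACGTCA) at 35 to 28 bases before the start, a motif added to the search after this sequence was seen. RefSeq holds a second Birc2 promoter entry, which is not shown and held no match to any of the motifs searched. Both strands of 300-base windows, 250 before to 50 after each start, were searched for these, for the kappaB consensus and for the p53 element (both decamers with at most 3 bases between them). Of 32851 such windows, 7.81% held the AP-1 motif, 3.44% the interferon core, 1.79% the cyclic AMP element, 4.51% a kappaB match and 0.0183% a p53 match. Cflar also held an interferon core, 6 to 15 bases after its start. No kappaB or p53 match was found in these windows of the members, which says only that the letters are not there, and a match is no evidence of a site.

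**Figure D1:**
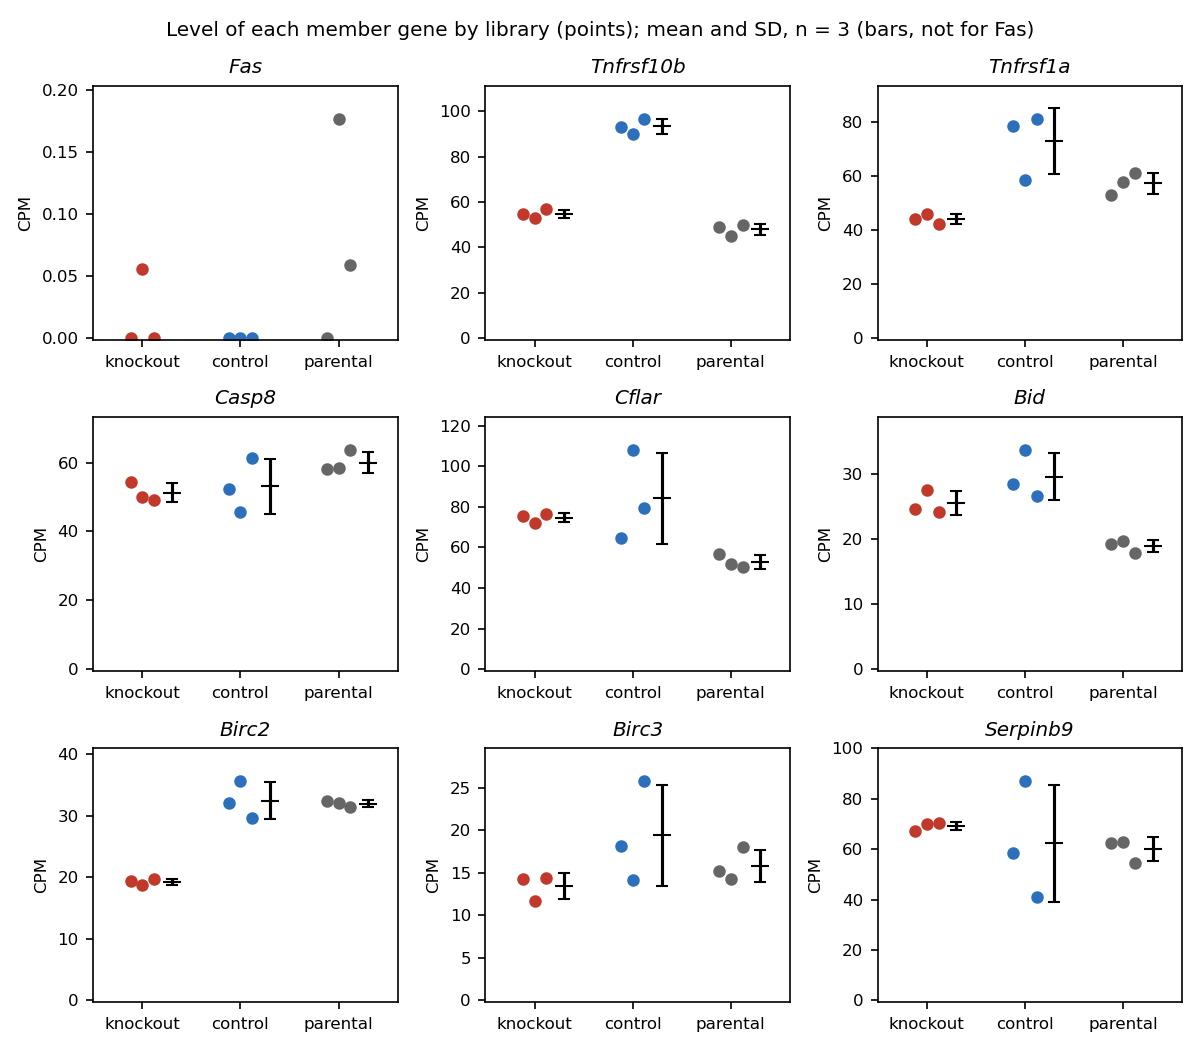
Level of each member gene in CPM (vertical axes, from 0) in the 3 libraries of the knockout, control and parental groups, with the mean and SD (n = 3) beside the points except for Fas. Birc2 and Tnfrsf1a are lowest in the knockout libraries, Tnfrsf10b is highest in the control libraries, Cflar and Bid are lowest in the parental libraries, and Fas never exceeds 0.177 CPM.

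Within a library, gene levels were set side by side as CPM per kilobase of merged exons. In the uncloned line Tnfrsf1a was highest at 22.2 ± 1.54 (SD, n = 3) CPM per kilobase, and Casp8 at 20.8 ± 1.09 lay within its spread. Serpinb9 followed at 17.2 ± 1.36, then Tnfrsf10b at 8.79 ± 0.461, Birc2 at 6.99 ± 0.121, Bid at 5.33 ± 0.268, Cflar at 4.17 ± 0.283 and Birc3 at 3.16 ± 0.385 CPM per kilobase. Each of these lay outside the SD of its neighbour in this order. In the knockout clone Serpinb9 headed the order at 19.8 ± 0.486 CPM per kilobase, ahead of Casp8 at 17.7 ± 0.972 and Tnfrsf1a at 17.1 ± 0.753, which overlapped each other. Birc2 had moved behind Bid and Cflar there, at 4.21 ± 0.105 CPM per kilobase. In the unedited clone Tnfrsf1a led at 28.2 ± 4.76 CPM per kilobase, with Casp8, Serpinb9 and Tnfrsf10b close together at 18.3 ± 2.74, 17.8 ± 6.66 and 17.1 ± 0.603. The merged exons of Cflar span 12669 bases over many transcripts, which lowers its value on this scale.

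Among the receptors, Fas was close to absent in all 3 groups. Fas (ENSMUSG00000024778, chromosome 19 from 34290666 to 34327772 in GRCm38) encodes the receptor for Fas ligand. It held 0, 1 and 0 counts in the knockout libraries, 0 counts in each control library and 0, 3 and 1 counts in the parental libraries. Over a whole group this came to at most 4 counts, or 0.0731 CPM, with an exact Poisson upper limit (95%) of 0.187 CPM in the uncloned line. By the same limit the 0 counts in the unedited clone allow up to 0.0628 CPM. Such limits cover counting error only. In the edgeR fit without a filter, added after the data were seen, the adjusted p of Fas was 0.534, 0.578 and 0.286 in the knockout against control, knockout against parental and control against parental comparisons. A difference between groups was not detectable at this depth, and no fold is given.

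Tnfrsf10b, which encodes the only mouse receptor for TRAIL with a death domain, was set apart in the unedited clone and not in the knockout clone. Tnfrsf10b (ENSMUSG00000022074, chromosome 14 from 69767472 to 69784411) measured 54.7, 52.8 and 56.7 CPM in the knockout libraries, 93.1, 90.1 and 96.6 CPM in the control libraries and 48.9, 45.1 and 49.8 CPM in the parental libraries. The control libraries lay above all others, and the knockout libraries lay slightly above the parental ones, without overlap. Its level in the knockout clone was 0.587 times that of the unedited clone, a log2 fold change of -0.77 (SE 0.07, edgeR adjusted p 5.44e-05). Against the uncloned line the unedited clone was 0.96 higher on the log2 scale (SE 0.07, edgeR adjusted p 6.88e-05), a fold of 1.95. The difference of 0.19 between the knockout clone and the uncloned line did not pass the test (SE 0.07, edgeR adjusted p 0.072). It passed with DESeq2 (0.19, adjusted p 0.0483), in the fit of only these groups (adjusted p 0.0244), and without control replicate 2 (adjusted p 0.0424) or 3 (adjusted p 0.0379). Tnfrsf10b lies on chromosome 14 with Zdhhc20. The median over its tested genes was 0.19 against the unedited clone and 0.21 against the uncloned line.

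Tnfrsf1a, which encodes the main receptor for TNF, fell in knockout cells relative to each of the other groups. Tnfrsf1a (ENSMUSG00000030341, chromosome 6 from 125349362 to 125362484) measured 44.2, 46.1 and 42.2 CPM in the knockout libraries, 78.8, 58.8 and 81.3 CPM in the control libraries and 53.2, 57.9 and 61.1 CPM in the parental libraries. All knockout libraries lay below the 6 others, while control and parental libraries overlapped. The log2 fold change was -0.72 against the unedited clone (SE 0.12, edgeR adjusted p 0.00132), a level 0.605 times as high. Against the uncloned line it was -0.38 (SE 0.12, edgeR adjusted p 0.0414), a level 0.77 times as high. The second call was close to the threshold. It was lost with limma voom (adjusted p 0.0518) and when any knockout library, any parental library or control replicate 1 was left out, with values from -0.43 to -0.33 and adjusted p from 0.0503 to 0.149. The unedited clone was 0.35 higher than the uncloned line (SE 0.12), which did not pass (edgeR adjusted p 0.0701) but did without control replicate 2 (0.48, adjusted p 0.00247).

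The neighbourhood of Tnfrsf1a on chromosome 6 was also low in the knockout clone. Of the 3 tested genes on either side, Tapbpl, Scnn1a, Plekhg6 and Cd9 fell against both other groups, 4 of 6 genes, where 13.4% of all tested genes did so. Their log2 fold changes against the unedited clone were -1.49, -1.51, -2.99 and -0.73, and against the uncloned line -1.13, -1.46, -1.50 and -0.37. Ltbr, which encodes the lymphotoxin beta receptor and lies 42.8 kb before Tnfrsf1a, was at -0.63 against the unedited clone (edgeR adjusted p 0.000538) and at -0.24 against the uncloned line (adjusted p 0.0723). All tested genes of chromosome 6 had medians of -0.16 and 0 in the same comparisons. The genes whose log2 CPM followed Tnfrsf1a most closely over the 9 libraries, among 10019 others, were Tnfrsf1b (Pearson r 0.9934), Lgals4 (0.9923) and Man2b2 (0.9878). Tnfrsf1b encodes the other TNF receptor, which has no death domain, and lies on chromosome 4. These correlations rest on 3 groups of libraries and 172 genes exceeded 0.95, so they describe the pattern without testing it.

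Downstream of the receptors, Casp8 was called in none of the 3 comparisons. Casp8 (ENSMUSG00000026029, chromosome 1 from 58795374 to 58847503) encodes the initiator caspase. It measured 54.4, 50.1 and 49.2 CPM in the knockout libraries, 52.2, 45.6 and 61.4 CPM in the control libraries and 58.1, 58.3 and 63.7 CPM in the parental libraries. The knockout libraries lay just below the parental ones and inside the range of the control libraries. The log2 fold changes were -0.05 (SE 0.11, edgeR adjusted p 0.737) against the unedited clone and -0.23 (SE 0.11, adjusted p 0.141) against the uncloned line, and the unedited clone was at -0.18 against the uncloned line (SE 0.11, adjusted p 0.275). The value of -0.23 passed in the fit of only these groups (adjusted p 0.0122), without control replicate 2 (adjusted p 0.0485) and without control replicate 3 (adjusted p 0.0404). The value of -0.18 became -0.29 (adjusted p 0.0312) without control replicate 3.

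Cflar and Bid, an inhibitor and a substrate of caspase-8, were higher in both clones than in the uncloned line. Cflar (ENSMUSG00000026031, chromosome 1 from 58711508 to 58758884) lies next to Casp8. It measured 75.5, 72.2 and 76.2 CPM in the knockout libraries, 64.5, 108 and 79.6 CPM in the control libraries and 56.9, 51.6 and 50.1 CPM in the parental libraries. All 6 clone libraries lay above the parental ones, and the knockout values fell inside the wide range of the control values. Cflar rose by 0.50 on the log2 scale in the knockout clone (SE 0.16, edgeR adjusted p 0.041) and by 0.67 in the unedited clone (SE 0.16, edgeR adjusted p 0.0173), both against the uncloned line. Relative to the unedited clone, the knockout clone was at -0.17 (SE 0.16, adjusted p 0.409). The call for the knockout clone was lost when any knockout or parental library was left out, with values from 0.46 to 0.56 and adjusted p from 0.0574 to 0.118. That for the unedited clone was lost without parental replicate 2 (0.64, adjusted p 0.0624) or 3 (0.62, adjusted p 0.0607), and in the fit of only these groups (0.67, adjusted p 0.0575).

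Bid (ENSMUSG00000004446, chromosome 6 from 120891930 to 120916853) measured 24.6, 27.6 and 24.2 CPM in the knockout libraries, 28.5, 33.7 and 26.6 CPM in the control libraries and 19.2, 19.7 and 17.9 CPM in the parental libraries. Again the 6 clone libraries lay above the 3 parental ones. Bid rose by 0.43 in the knockout clone (SE 0.11, edgeR adjusted p 0.0164) and by 0.64 in the unedited clone (SE 0.11, edgeR adjusted p 0.00382) against the uncloned line, folds of 1.34 and 1.56. The first of these was lost without knockout replicate 2 (0.37, adjusted p 0.0588) or parental replicate 3 (0.39, adjusted p 0.0633). The knockout clone was at -0.22 against the unedited clone (SE 0.11, adjusted p 0.134), and at -0.29 without control replicate 3 (adjusted p 0.0466). An exon of Bid overlaps Bcl2l13, so reads can be divided between them. Genes higher in both clones than in the uncloned line made up 2.14% of all genes tested, and Cflar and Bid were 2 of the 8 tested members.

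The ratio of Casp8 to Cflar counts in a library does not depend on library scaling. As log2 values it was -0.47, -0.53 and -0.63 in the knockout libraries, -0.30, -1.25 and -0.38 in the control libraries and 0.03, 0.18 and 0.35 in the parental libraries. All clone libraries had a lower ratio than all parental libraries. The difference from the uncloned line was -0.73 for the knockout clone and -0.83 for the unedited clone. Both had an exact two-sided permutation p of 0.1 (n = 3 against 3), the smallest this design allows, or 0.2 adjusted over the 6 ratio tests. Between the clones it was 0.10 (exact permutation p 1), and -0.20 without control replicate 2.

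Birc2 was lower in the knockout libraries than in the 6 others, and of the 4 members called against the uncloned line it was the 1 whose call held in each refit. Birc2 (ENSMUSG00000057367, chromosome 9 from 7818227 to 7837064) encodes cIAP1. It measured 19.4, 18.8 and 19.7 CPM in the knockout libraries, 32.1, 35.7 and 29.6 CPM in the control libraries and 32.5, 32.1 and 31.4 CPM in the parental libraries. The knockout libraries were well below the others, and control and parental libraries overlapped. The log2 fold changes were -0.75 (SE 0.09, edgeR adjusted p 0.000208) and -0.73 (SE 0.09, edgeR adjusted p 0.000389), levels 0.595 and 0.602 times as high. Both calls held in every refit, and leaving out 1 library kept them between -0.81 and -0.68. The unedited clone was at 0.02 against the uncloned line (SE 0.09, adjusted p 0.901). Birc2 and Tnfrsf1a were thus the 2 members that fell against both other groups, beside 13.4% of all tested genes.

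Birc3, the neighbour and paralog of Birc2, did not pass the test. Birc3 (ENSMUSG00000032000, chromosome 9 from 7848699 to 7873186) encodes cIAP2. It measured 14.3, 11.7 and 14.4 CPM in the knockout libraries, 18.2, 14.2 and 25.8 CPM in the control libraries and 15.2, 14.3 and 18.0 CPM in the parental libraries. The groups overlapped in each comparison. Against the unedited clone the log2 fold change was -0.53 (SE 0.20, edgeR adjusted p 0.0614), which passed without a filter (-0.51, adjusted p 0.0378), with DESeq2 (-0.52, adjusted p 0.048) and without control replicate 2 (-0.71, adjusted p 0.00557). Against the uncloned line it was -0.24 (SE 0.21, adjusted p 0.416). The log2 ratio of Birc2 to Birc3 counts was 0.45, 0.68 and 0.45 in the knockout libraries, 0.82, 1.33 and 0.19 in the control libraries and 1.10, 1.16 and 0.80 in the parental libraries. Its difference of -0.49 between knockout and parental libraries, which did not overlap, had an exact permutation p of 0.1 (0.2 adjusted). Against the unedited clone it was -0.25 (exact permutation p 0.6), and 0.02 without control replicate 2.

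**Figure D2:**
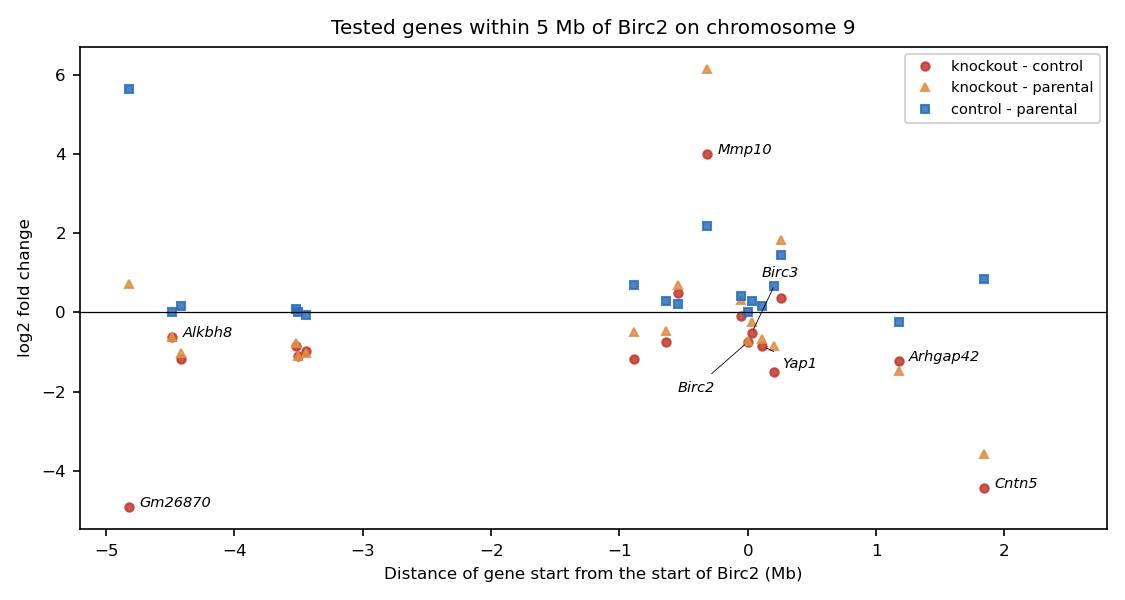
Log2 fold change (vertical axis) of the 18 tested genes within 5 Mb of Birc2, by the distance of the gene start from that of Birc2 in Mb (horizontal axis), for the knockout against the unedited clone, the knockout clone against the uncloned line and the unedited clone against the uncloned line. Most knockout values lie below 0 on both sides of Birc2, while Mmp10 is at 3.99 and 6.15; Cntn5, with 0 knockout counts, is drawn at its bound from a floor of 3 counts.

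Chromosome 9 as a whole was lower in the knockout clone. Over its 748 tested genes the median was -0.53 in both knockout comparisons, beside -0.02 and -0.01 over all tested genes. In the comparison of the unedited clone with the uncloned line it was -0.02. On this chromosome 53.5% of genes were called lower than in the unedited clone and 54.3% lower than in the uncloned line. Of the 17 other tested genes within 5 Mb of Birc2, 10 fell against both groups and 2 rose, with medians of -0.86 and -0.63. On one side of Birc2 lie Mmp13, Mmp10 and Tmem123. Mmp13 rose by 0.49 and 0.69, and Mmp10, a matrix metalloproteinase gene, by 3.99 and 6.15, against the unedited clone and the uncloned line. Tmem123 was at -0.10 (edgeR adjusted p 0.309) and rose by 0.32. On the other side Yap1, a transcriptional coactivator gene, fell by 0.85 and 0.68, and Cfap300 fell by 1.51 and 0.85. The genes closest in pattern to Birc2 over the 9 libraries were Alkbh8 (Pearson r 0.9944), Cdc37 (0.9918) and Timm29 (0.9902), and each of them also lies on chromosome 9. The part of the chromosome-wide shift in the Birc2 values was not tested.

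**Figure D3:**
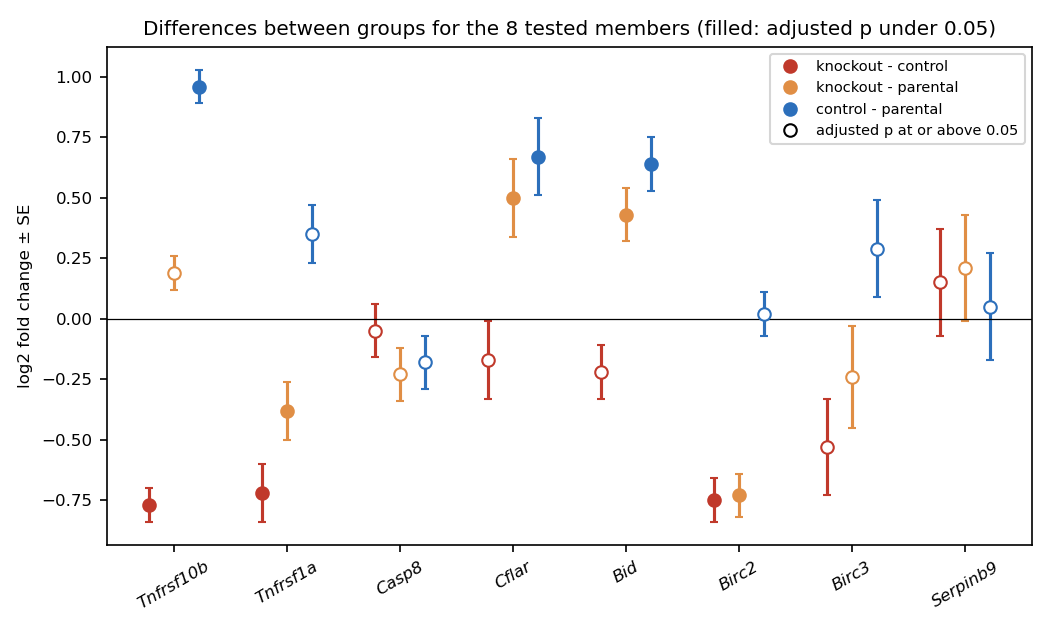
Log2 fold change with its SE (vertical axis) of the 8 tested members in each of the 3 comparisons, with filled points where the edgeR adjusted p was under 0.05. Birc2 and Tnfrsf1a have filled points below 0 in both knockout comparisons, Tnfrsf10b is high in the unedited clone alone, and Cflar and Bid are above 0 in both comparisons with the uncloned line.

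Serpinb9, the granzyme B inhibitor gene, was called in none of the 3 comparisons. Serpinb9 (ENSMUSG00000045827, chromosome 13 from 33003250 to 33017957) measured 67.3, 69.9 and 70.5 CPM in the knockout libraries, 58.6, 87.1 and 41.0 CPM in the control libraries and 62.5, 63.0 and 54.5 CPM in the parental libraries. The knockout libraries lay above the parental ones without overlap, and the control libraries spanned both. The log2 fold changes were 0.15 (SE 0.22, edgeR adjusted p 0.592) against the unedited clone and 0.21 (SE 0.22, adjusted p 0.505) against the uncloned line, and the unedited clone was at 0.05 (SE 0.22, adjusted p 0.889). The comparisons that use the control group moved with its libraries. Without control replicate 2 the value against the unedited clone became 0.47 and passed (adjusted p 0.0141), without control replicate 3 it became -0.07, and in the fit of only the knockout and parental groups 0.20 passed (adjusted p 0.0261). Chromosome 13 as a whole had a median of 0.33 against the unedited clone and 0.12 against the uncloned line.

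The paralog Serpinb9b, 24.2 kb further along the chromosome, was named after its values were seen. It measured 53.1, 72.1 and 52.1 CPM in the knockout libraries, 181, 367 and 191 CPM in the control libraries and 53.7, 51.8 and 61.7 CPM in the parental libraries. All control libraries lay far above the others. The knockout clone was 2.06 lower than the unedited clone on the log2 scale (SE 0.26, edgeR adjusted p 0.000297), and the unedited clone was 2.14 higher than the uncloned line (SE 0.26, adjusted p 0.000848). The sum of both genes, which does not depend on how reads of similar copies were divided between them, was 128 ± 11.9 CPM in the knockout clone, 309 ± 126 in the unedited clone and 116 ± 0.801 in the uncloned line (SD, n = 3). An exon of Serpinb9b overlaps Gm36099. Of 15 Serpinb genes on chromosome 13, 5 were tested. Serpinb6a and Serpinb6b passed in no comparison, with means of 503 to 568 and 123 to 178 CPM over the 3 groups. Serpinb1a, an inhibitor of neutrophil serine proteases, measured 0.195, 0.445 and 0.759 CPM in the knockout libraries, 5.06, 1.96 and 2.47 CPM in the control libraries and 7.61, 8.78 and 10.2 CPM in the parental libraries. It fell by 2.82 (SE 0.49, edgeR adjusted p 0.00149) and by 4.28 (SE 0.47, adjusted p 0.000215) in the knockout clone. The remaining 10 genes had means of at most 0.515 CPM.

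**Figure D4:**
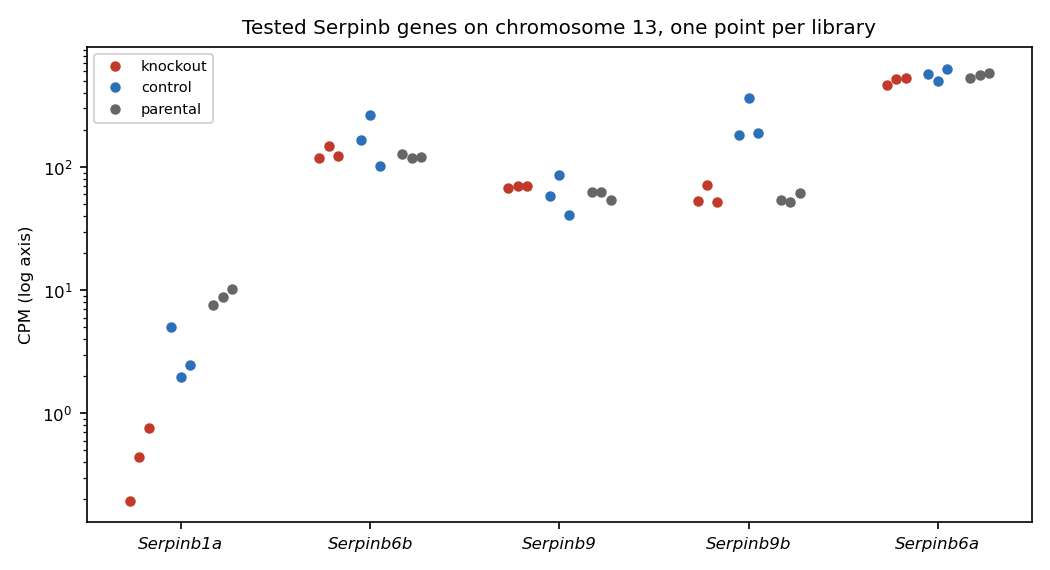
Level in CPM (vertical axis, log scale) of the 5 tested Serpinb genes of chromosome 13, 1 point per library, in order along the chromosome. Serpinb9b is highest in the control libraries (181 to 367 CPM), Serpinb9 ranges from 41.0 to 87.1 CPM, and Serpinb1a is lowest in the knockout libraries.

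Counts of members called are set here beside those over all genes. The knockout clone differed from the unedited clone in 3 of 8 tested members, all lower (Tnfrsf10b, Tnfrsf1a and Birc2), where 42.9% of all tested genes were called and 24.2% were called lower. Against the uncloned line 4 of 8 were called, Cflar and Bid higher and Tnfrsf1a and Birc2 lower, where 31.4% of all genes were called, 13.1% higher and 18.3% lower. The unedited clone differed from the uncloned line in 3 of 8, all higher (Tnfrsf10b, Cflar and Bid), where 21.4% of all genes did and 10.4% were higher. Tnfrsf10b was the 1 member called higher in the unedited clone than in both other groups, as were 7.01% of all genes. Serpinb9, Casp8 and Birc3, 3 of 8, were called in no comparison, as were 45.1% of all genes. The libraries of the groups did not overlap for 3, 7 and 3 of the 8 members in the order of these comparisons, and for 51.6%, 61.5% and 37.3% of all genes. The median log2 fold change of the tested members was -0.37, -0.02 and 0.32 in these comparisons, beside -0.02, -0.01 and 0.01 over all genes. In the fit of only the knockout and parental groups 7 of 8 members were called, all but Birc3, where 52.4% of all genes were. Each group takes part in 2 comparisons, so the comparisons share libraries.

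The other genes of these pathways were counted from lists of 65 genes, of which 53 were tested. Against the unedited clone 15 were higher and 12 lower in the knockout clone (50.9% called, beside 42.9% of all genes), with a median of 0.08. Against the uncloned line 10 were higher and 7 lower (32.1%, beside 31.4%), with a median of 0.14. The unedited clone had 9 higher and 8 lower than the uncloned line (32.1%, beside 21.4%), with a median of 0.04. The 7 genes for death ligands and granule proteins were not tested. Fasl held 0 to 2 counts in a library, Tnf 0 to 4 and Gzmb 0 or 1, and Tnfsf10 and Prf1 held 0 counts in all 9 libraries.

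**Figure D5:**
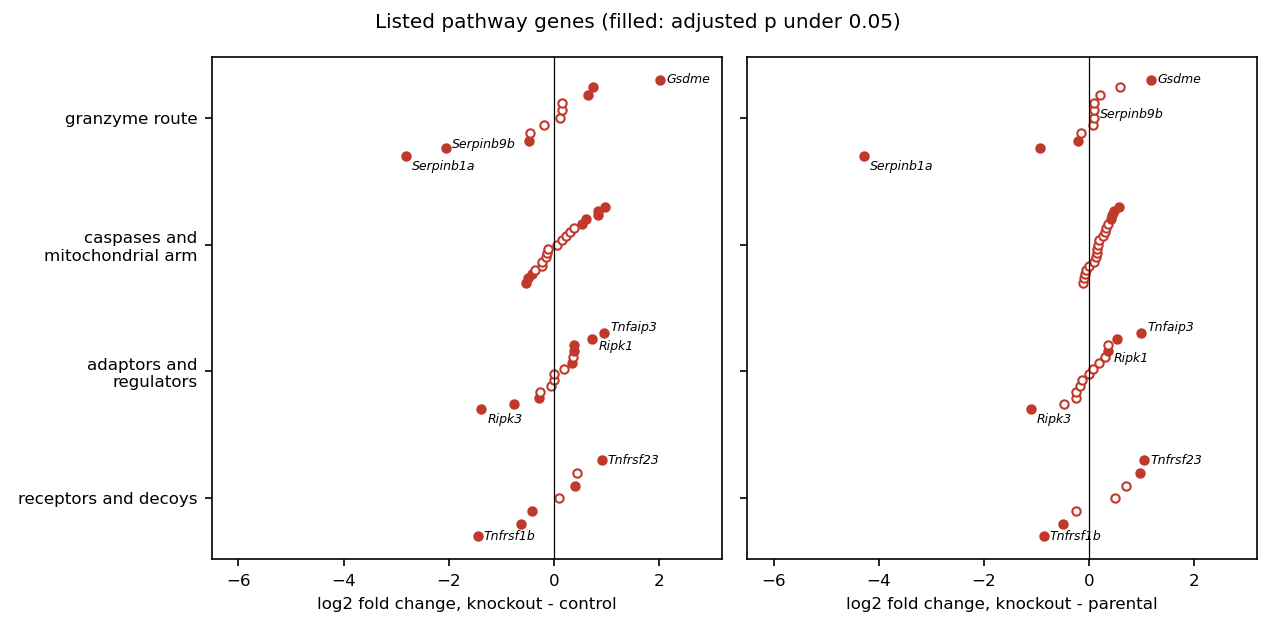
Log2 fold change (horizontal axes) of the tested genes of the 4 other lists, the knockout clone against the unedited clone on the left and against the uncloned line on the right, filled where the edgeR adjusted p was under 0.05. Genes lie on both sides of 0 in every list, and Gsdme is the highest point in both panels. Tested genes of these lists are drawn whether or not the text names them, except a few that were left out.

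Of 7 tested death receptors and decoys, 2 rose and 3 fell against the unedited clone, and 2 rose and 2 fell against the uncloned line. Tnfrsf22 and Tnfrsf23, neighbouring genes for mouse decoy receptors of TRAIL, were the ones that rose. Tnfrsf23 measured 73.4, 65.2 and 67.9 CPM in the knockout libraries, 31.1, 41.3 and 37.7 CPM in the control libraries and 36.0, 35.6 and 28.4 CPM in the parental libraries. The knockout libraries lay above all others. It rose by 0.91 (SE 0.13, edgeR adjusted p 0.000494) and by 1.05 (SE 0.13, adjusted p 0.000386). Tnfrsf22 rose by 0.40 (edgeR adjusted p 0.0336) and 0.97 (adjusted p 0.000656), and the first of these was lost without knockout replicate 1 (0.33, adjusted p 0.111) or 3 (0.37, adjusted p 0.0954) and without control replicate 1 (0.34, adjusted p 0.112) or 3 (0.39, adjusted p 0.0528). Tnfrsf1b fell by 1.45 (SE 0.21, edgeR adjusted p 0.000566) and 0.86 (SE 0.21, adjusted p 0.0128), and 0.74 without parental replicate 3 was no longer called (adjusted p 0.0588). Tnfrsf21, which encodes death receptor 6, fell by 0.42 (adjusted p 0.00738) and 0.49 (adjusted p 0.0051). An exon of Tnfrsf23 overlaps E230032D23Rik. These 4 genes were named after their values were seen.

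Of 14 tested adaptors and regulators, 5 rose and 3 fell against the unedited clone, and 3 rose and 1 fell against the uncloned line. Among those that rose in both comparisons were Ripk1 and Tnfaip3. Ripk1, the kinase of the TNF receptor complex, was at 94.4 ± 2.37 CPM in the knockout clone, 56.8 ± 1.73 in the unedited clone and 73.7 ± 2.71 in the uncloned line (SD, n = 3), with log2 fold changes of 0.73 (SE 0.07, edgeR adjusted p 4.72e-05) and 0.36 (SE 0.07, adjusted p 0.00334). Tnfaip3, which encodes the ubiquitin-editing enzyme A20, had means of 132 ± 3.11, 68.2 ± 22.8 and 66.5 ± 6.12 CPM for the same groups and rose by 0.96 (SE 0.19, adjusted p 0.00333) and 0.99 (SE 0.19, adjusted p 0.00412). Both genes were named after their values were seen, and an exon of Ripk1 overlaps Serpinb6a. Ripk1 lies on chromosome 13, whose tested genes had medians of 0.33 against the unedited clone and 0.12 against the uncloned line. The part of this shift in the Ripk1 values was not tested. Ripk3, the kinase that starts necroptosis, was low in all groups, at 0.470 ± 0.0482 CPM in the knockout clone, 1.21 ± 0.484 in the unedited clone and 1.02 ± 0.131 in the uncloned line. It fell by 1.38 (SE 0.36, edgeR adjusted p 0.0127) and 1.11 (SE 0.37, adjusted p 0.0452). The second call was lost with DESeq2 (adjusted p 0.0741), with limma voom (0.0539), without a filter (0.0995) and without any library except control replicates 2 and 3 (adjusted p 0.0614 to 0.129). Fadd was lowest in the unedited clone, which was at -0.63 against the uncloned line (edgeR adjusted p 0.00566) and below the knockout clone by 0.38 (adjusted p 0.0272). The knockout clone was at -0.25 against the uncloned line (adjusted p 0.126). Fadd was also named after its values were seen; an exon of it overlaps Faddos.

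Of 21 tested caspases and mitochondrial genes, 5 rose and 3 fell against the unedited clone, and 4 rose against the uncloned line. Xiap, which encodes an inhibitor of caspases, passed in no comparison, at 290 ± 23.2 CPM in the knockout clone, 318 ± 69.7 in the unedited clone and 290 ± 5.64 in the uncloned line (SD, n = 3), and was named after its values were seen. Bak1, which encodes a mitochondrial pore protein, rose by 0.62 (SE 0.09, edgeR adjusted p 0.0007) and 0.58 (SE 0.09, adjusted p 0.00154). It was named after its values were seen, and an exon of it overlaps Ggnbp1.

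Of 11 tested genes of granzyme entry, substrates and inhibitors, 3 rose and 3 fell against the unedited clone, and 1 rose and 3 fell against the uncloned line. Gsdme, which encodes a gasdermin that granzyme B can cleave, was the one that rose in both. It measured 10.6, 13.7 and 10.1 CPM in the knockout libraries, 3.40, 3.03 and 1.94 CPM in the control libraries and 5.49, 5.48 and 4.24 CPM in the parental libraries. The 3 groups did not overlap, with the knockout libraries highest and the control libraries lowest. It rose by 2.03 (SE 0.23, edgeR adjusted p 0.000142) and by 1.18 (SE 0.22, adjusted p 0.00324). Igf2r, whose product can take up granzyme B, was named after its values were seen, at 18.4 ± 0.925 CPM in the knockout clone, 17.1 ± 2.67 in the unedited clone and 35.2 ± 0.831 in the uncloned line. It fell by 0.93 in the knockout clone (SE 0.11, edgeR adjusted p 0.000383) and by 1.04 in the unedited clone (SE 0.11, adjusted p 0.000475) against the uncloned line.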

How the data were processed

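RNA was measured in 9 libraries made with the KAPA mRNA HyperPrep kit, per the labels. The table deposited by the authors holds RSEM estimated counts per Ensembl gene (expected counts), 1 column per library. All values were whole, so rounding changed 0 of them. The submitters' processing notes name STAR 2.5.2, RSEM 1.3.0, DESeq2 1.10.1 and build GRCm38. Which annotation release and strand setting were used is not given in the sources used here. RSEM divides reads shared by several genes by an estimate, so values of paralogs and overlapping genes are uncertain. Symbols and positions came from GENCODE M21 on GRCm38, which held 54809 of 54838 identifiers.

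After filterByExpr (minimum count 10, minimum total 15) and TMM scaling, all 9 libraries entered 1 edgeR 4.0.16 quasi-likelihood fit in R 4.3.3, with no term but the group. Calls needed an adjusted p (Benjamini-Hochberg, 13153 genes) under 0.05, and an adjusted p with no tool beside it is from edgeR. The SE was taken from the fold change and its F statistic. CPM was computed after TMM scaling. Ratios of counts used a pseudocount of 0.5 and exact permutation tests in scipy 1.17.1. The test was tried on simulated counts. Libraries of a group were not duplicates (chi-square per gene at least 5). The alternatives were DESeq2 size factors or total counts, no filter or a mean of 5 CPM, DESeq2 1.42.0, limma voom 3.58.1, a replicate block, only the groups compared, and each library left out, the last 2 on the same 13153 genes.

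The members, lists, alternatives and the rule for names were chosen with earlier results of these data known. All members were named, as were listed genes called in the same direction in both knockout comparisons with changes of 1 or more on the log2 scale. The rule also names ligands, the 3 tested genes on either side of members called in both knockout comparisons, the Serpinb genes beside Serpinb9 and the 3 genes most correlated with those members. Genes named outside it are said to be chosen after their values were seen. Single values of some listed genes are not reported here; the list counts include them.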

Additional observations from a re-analysis of the deposited data

How the results depend on the processing

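Of 408 recomputed log2 fold changes of the 8 tested members, 362 kept their sign and side of the threshold, 21 lost a call, 16 gained one and 9 changed sign. Sign changes outside leave-one-out were Serpinb9 (-0.02 with limma voom) and Birc2 (-0.03 with total counts), both in the unedited clone against the uncloned line. Ranges over single libraries left out crossed 0 for Serpinb9 (-0.07 to 0.47), Casp8 (-0.15 to 0.07) and Cflar (-0.33 to 0.05) in the knockout against the unedited clone, and for Serpinb9 (-0.27 to 0.28) and Birc2 (-0.05 to 0.08) in the unedited clone against the uncloned line. Among other named genes, Tnfaip3 crossed 0 there (-0.01 with total counts, -0.02 with limma voom, -0.27 to 0.20 with libraries left out), as did Ripk3 (-0.07 to 0.49), Tnfrsf21 (-0.13 to 0.02) and Bak1 (-0.13 to 0.05), and Serpinb9b (-0.08 to 0.17) in the knockout clone against the uncloned line. The log2 ratio of Casp8 to Cflar between the clones ran from -0.20 to 0.27 and that of Birc2 to Birc3 from -0.55 to 0.02, and from -0.51 to 0.05 between the unedited clone and the uncloned line.

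Leaving out 1 library gave 3 to 5, 1 to 6 and 2 to 4 members called in the knockout against control, knockout against parental and control against parental comparisons, 4232 to 7083, 2511 to 5655 and 1461 to 4068 genes, and 18 to 35, 11 to 27 and 9 to 23 listed genes. Fits of only the groups compared called 7 members, 32 listed genes and 6890 genes for knockout against parental, and 11 listed genes and 1515 genes for control against parental. Requiring a log2 change of 1 or more either way as well left 1846, 1394 and 853 genes and 0 members in each comparison, since the largest absolute member value was 0.96. With the replicate number as a block, 4, 2 and 3 members were called; Birc3 passed against the unedited clone (-0.50, adjusted p 0.0222), while Tnfrsf1a (-0.37, adjusted p 0.0592) and Cflar (0.50, adjusted p 0.0525) no longer passed against the uncloned line. Among other named genes the block also ended the calls of Ripk3 against the uncloned line (-1.11, adjusted p 0.0536) and of Tnfrsf22 against the unedited clone (0.39, adjusted p 0.0502). Fadd, Xiap and the neighbours of Tnfrsf1a and Birc2 outside the members were not followed through the refits. The numbers do not pair the libraries, since the correlation of same-numbered deviations ran from -0.223 to 0.344. Depth limits Fas and the death ligands.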

Other observations

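The members did not vary together among the 3 control libraries. Between control replicates 2 and 3, Serpinb9 differed by 1.08 on the log2 scale, Cflar by 0.45, Bid by 0.34 and Birc2 by 0.27, each higher in replicate 2. Birc3 (-0.86), Tnfrsf1a (-0.47), Casp8 (-0.43) and Tnfrsf10b (-0.10) were lower in replicate 2. The range of Serpinb9 was 0.07 in the knockout clone and 0.21 in the uncloned line, and that of Birc3 was 0.30 and 0.33. The median over 10020 genes in the unedited clone was 0.39, which Serpinb9, Birc3, Cflar, Tnfrsf1a and Casp8 exceeded. The labels give no batch.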
